A study of Mus musculus with 11 samples.

Results

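The regions described here are peaks of the repressive histone mark H3K27me3 that were called in quiescent satellite cells (QSCs) of old mice, were not called in QSCs of young mice, and lay away from H3K4me3. They were chosen by where peaks had been called, as the autosomal H3K27me3 peaks of old QSCs that shared not a single base with an H3K27me3 peak of young QSCs, an H3K4me3 peak of old QSCs or an H3K4me3 peak of young QSCs. This held for 8020 of the 16933 autosomal H3K27me3 peaks of old QSCs, a share of 47.4%. The 8 peak lists of the series held 212879 peaks in all. The other autosomal H3K27me3 peaks of old QSCs were 4556 peaks that overlapped a young H3K27me3 peak (shared peaks) and 4357 old-only peaks that overlapped an H3K4me3 peak of either age (old-only peaks on H3K4me3).

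Each list comes from 1 ChIP-seq library. H3K4me3 and H3K27me3 were profiled in QSCs of old mice (22 to 24 months of age). H3K4me3, H3K27me3 and H3K36me3 were profiled in QSCs and in activated satellite cells (ASCs) of young mice (2 to 3 months). All mice were healthy C57BL/6 males with no transgene or treatment of the animals named in the labels, and the cells came from hindlimb muscle by sorting for VCAM+/CD31-/CD45-/Sca1- cells. By the labels, ASCs were young QSCs grown for 3 days on a coated surface in medium with horse serum. The paper, in contrast, speaks of satellite cells activated in vivo, after muscle injury. Which of these applies to the ASC libraries was not settled here, and every overlap with ASC peaks is subject to it. Cells were stored until there were enough for a ChIP reaction, so a library may hold cells of several mice. The identity of the sorted cells was not checked here, since the lists hold peaks without gene names.

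H3K27me3 is written by the Polycomb repressive complex PRC2 and is known for silencing developmental genes that a cell type does not use. H3K4me3 sits at the start sites of active and poised genes, and H3K36me3 is laid down along the bodies of transcribed genes, where it hinders PRC2 on the same histone tail. Satellite cells are the stem cells of skeletal muscle, and their chromatin at quiescence, on activation and with age is the subject of the study.

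The score of a peak follows the scale of the peak caller MACS, 10 times the negative log10 of the p-value against an input library. The lowest score in the lists is 50, a p-value of 1e-05. With 1 library per cell state, age and mark and an unknown number of reads behind each, age, depth and the quality of a library cannot be told apart, and no test between libraries was made. Ranges in parentheses after a share or a median are 95% intervals for counting error alone, Wilson's for shares and from binomial order statistics for medians, and neighbouring peaks are not independent of each other. Where a value is set beside "all old peaks", these are the 16933 autosomal H3K27me3 peaks of old QSCs, the 8020 included.

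The old-only peaks off H3K4me3 were narrow and low in score. They covered 6.16 Mb of the 16.2 Mb under all old peaks and were 768 bp wide in the mean. Their median width was 719.5 bp (714 to 727), with an inner range from 605 bp at the lower to 874 bp at the upper quartile. The shared peaks had a median width of 1058 bp (1038 to 1074) and the old-only peaks on H3K4me3 one of 923 bp (913 to 932). A width from 0.5 to 1 kb was found for 6622 of the 8020 peaks (82.6%, with an interval of 81.7% to 83.4%), and for 66% of all old peaks. Only 19 were wider than 2 kb, or 0.237%, against 3.47% of all old peaks. These values come from the list that chose the peaks and are a description.

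Their median score was 72.28 (71.54 to 73.09), compared with 180.18 for the shared peaks and 101.64 for the old-only peaks on H3K4me3. A score under 60, close to the lowest that was called, was given to 27.7% of the peaks (all old peaks, 19.1%). A score of at least 100 was reached by 1903, which is 23.7% (all old peaks, 43.6%), and a score of at least 200 by 173, which is 2.16% (all old peaks, 16.1%). A score of at least 300 was given to 25 (all old peaks, 8.96%). Width and score were ordered in the same way on every chromosome, and the median of the 8020 peaks was below that of the old-only peaks on H3K4me3 on 19 of 19 autosomes for both.

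**Figure D1:**
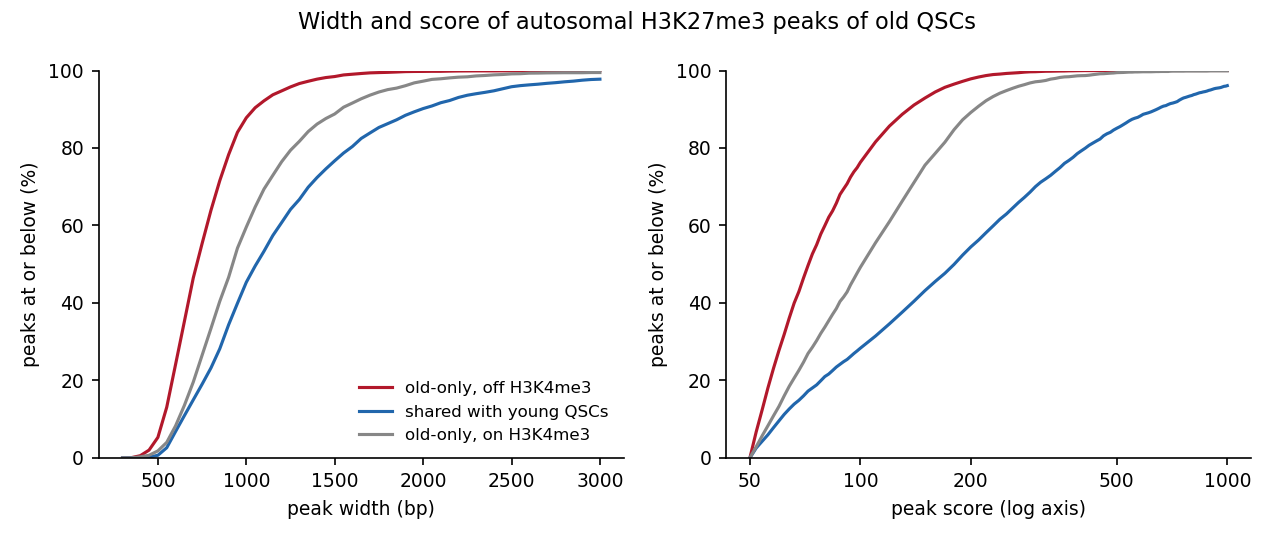
The percentage of autosomal H3K27me3 peaks of old QSCs at or below a given width in bp (left) or score (right, log axis), for the 8020 old-only peaks off H3K4me3, the 4357 old-only peaks on H3K4me3 and the 4556 peaks shared with young QSCs. The curve of the old-only peaks off H3K4me3 rises first in both panels, reaching its median at 719.5 bp and at a score of 72.28.

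At the limit of the rule, 44 of the peaks had an excluded peak within 100 bp, and 402 (5.01%) within 1 kb. The smallest gap was 6 bp, from a peak on chromosome 17 with a score of 277.86 to an H3K4me3 peak. On the other side of the limit, 44 old H3K27me3 peaks were left out for an overlap of 100 bp or less. The smallest such overlap was 1 bp, at a shared peak on chromosome 2 with a score of 97.21. The median score was 77.0 for the peaks just inside and 63 for those just outside.

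Most of the peaks did not flank H3K27me3 of young QSCs. The median distance to the nearest young H3K27me3 peak was 143 kb (134 to 153), and the quartiles were 24.5 and 562 kb. With scores of at least 100 in every list, which shortens the young list too, the median was 375 kb, and with that limit on the old H3K27me3 list alone it was 148 kb. More than 100 kb separated 4500 of the 8020 peaks (56.1%) from any young H3K27me3 peak, and more than 1 Mb separated 1193 (14.9%). For all old peaks these shares were 44.8% and 12.4%, values that the overlap of the shared peaks lowers by construction. The old-only peaks on H3K4me3 were farther from young H3K27me3, with a median of 286 kb (271 to 306), 70.7% (69.3% to 72.0%) over 100 kb and 20.9% (19.7% to 22.1%) over 1 Mb away. The farthest peak lay 8600 kb away. Young H3K27me3 domains wider than 5 kb were at a median distance of 2371 kb.

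A smaller group lay next to young domains. Within 5 kb of a young H3K27me3 peak there were 785 peaks, or 9.79% (9.16% to 10.5%), and within 1 kb 241, or 3.00% (2.65% to 3.40%). For all old peaks the shares were 33.2% and 29%, in which every shared peak counts as near. The part of the autosomes that lies outside young H3K27me3 but within 5 kb of it is 2.57% of the bases outside, and within 1 kb it is 0.684%. Among the old-only peaks on H3K4me3, 6.31% (5.63% to 7.07%) were within 5 kb of young H3K27me3. So few of the peaks were close to young H3K27me3, but more of them than of the bases.

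H3K4me3 of QSCs, which the rule only bars from overlapping, was at a median distance of 31.2 kb (29.8 to 32.6). Most of the peaks (6002, or 74.8%) were more than 10 kb from any H3K4me3 peak of either age (all old peaks, 37.6%), and 1807 (22.5%) were more than 100 kb away (all old peaks, 10.9%). The rule fixes most of this difference, since the old-only peaks on H3K4me3 are at a distance of 0 by definition, and nothing is read from it.

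H3K27me3 of ASCs was not used to choose the peaks. It overlapped 2804 of them, a share of 35.0% (33.93% to 36.01%), against 57.1% of all old peaks, 57.4% (56.0% to 58.9%) of the old-only peaks on H3K4me3 and 95.7% (95.1% to 96.3%) of the shared peaks. The share was the lowest of the 3 classes on 19 of 19 autosomes. The classes differ in score, but the order was the same among peaks of like score in every band under 200. From 150 to 200, ASC H3K27me3 overlapped 59.9% (55.1% to 64.7%) of the old-only peaks off H3K4me3, 70.2% (66.3% to 73.7%) of those on H3K4me3 and 95.9% (93.8% to 97.3%) of the shared peaks. From 200 up, the intervals of the old-only classes overlapped, with 72.3% (65.2% to 78.4%) of 173 peaks off and 71.6% (67.4% to 75.5%) of 472 peaks on H3K4me3.

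**Figure D2:**
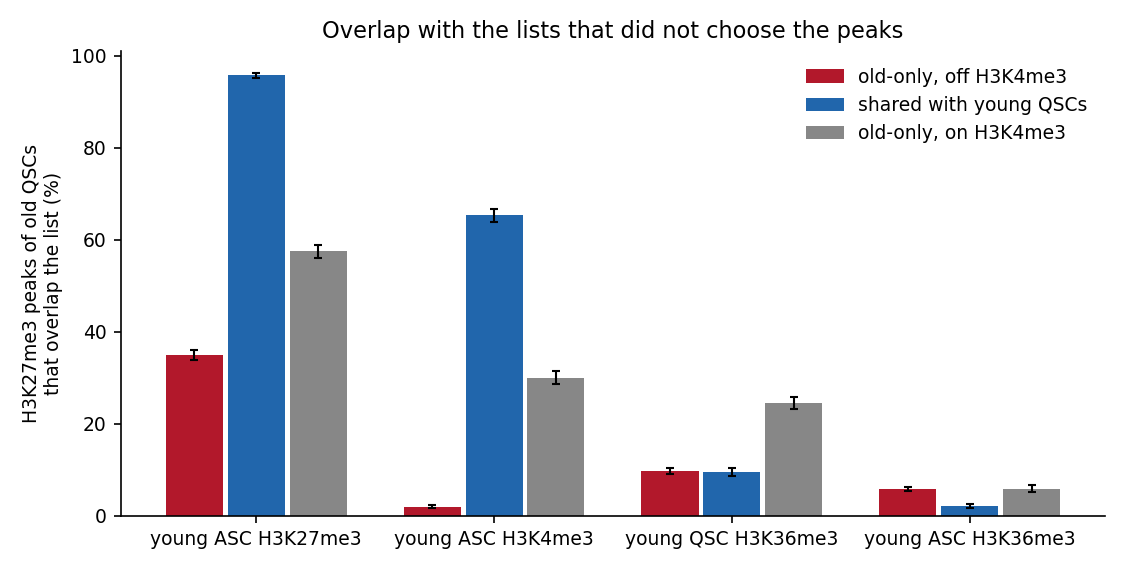
The percentage of autosomal H3K27me3 peaks of old QSCs that overlapped each of the 4 lists that the rule did not use, for the 3 classes of peaks, with Wilson 95% intervals as error bars. H3K27me3 of ASCs overlapped 35.0% of the old-only peaks off H3K4me3, and H3K36me3 of young QSCs overlapped 9.69%.

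The 8020 peaks fell into 2804 that were also called in H3K27me3 of ASCs, 4530 that overlapped no peak of any other list, and 686 that were found in H3K36me3 of either state or in H3K4me3 of ASCs without H3K27me3 of ASCs. The 4530 peaks found in no other list made up 56.5% (55.4% to 57.6%) of the 8020 and 26.8% of all old peaks. The latter share counts the same 4530 peaks, since every old peak outside the 8020 overlapped a list that the rule used, so nothing can be read from the difference. The ASC list is more than 3 times as long as the young QSC list, with 37819 autosomal peaks against 11562. With the 11562 ASC peaks of highest score alone, 11.2% of the 8020 peaks were called in ASCs and 76.6% in no other list.

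The part also called in ASCs stood higher in the old list than the part found nowhere else. Its median score was 83.93 (81.90 to 85.97) against 68.10 (67.16 to 68.97), and its median width 808 bp (797 to 818) against 677.5 bp (672 to 683). It was also closer to young H3K27me3, with a median distance of 49.7 kb (44.2 to 54.6) against 259 kb (239 to 275). All 3 orders held on 19 of 19 autosomes. The part that the general placement of ASC peaks plays in the order of distance was not tested. A score of at least 200 was given to 125 of the 2804 peaks and to 38 of the 4530.

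The share of peaks also called in ASCs rose with the score. With the peaks split by score into 10 groups of near equal size, it was 22.4% (19.7% to 25.4%) in the lowest group, from 50.01 to 53.29, and 59.9% (56.4% to 63.2%) in the highest, from 135.11 to 633.01. Peaks found in no other list, nearly the complement, made up 67.6% (64.3% to 70.7%) of the lowest group and 33.3% (30.1% to 36.6%) of the highest. So 267 of the 802 highest-scoring peaks were in no other list. The median width rose from 593 to 978 bp between the same groups, while the median distance to young H3K27me3 stayed between 119 and 177 kb in all 10.

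**Figure D3:**
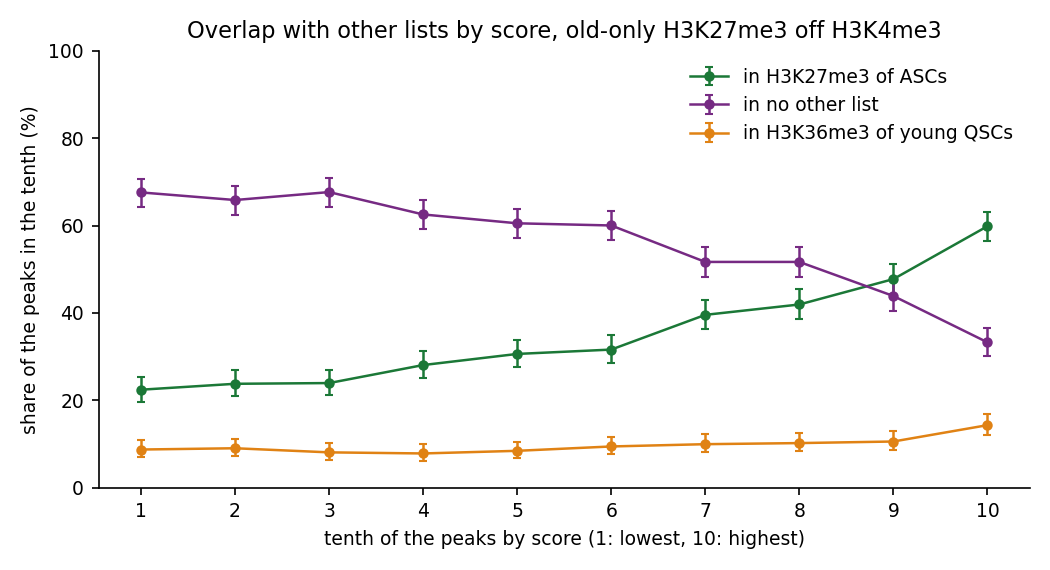
The share (%) of the 8020 peaks that were also called in H3K27me3 of ASCs, in no other list, or in H3K36me3 of young QSCs, in 10 groups of near equal size from the lowest to the highest score, with Wilson 95% intervals. The share in ASCs goes from 22.4% to 59.9%, and the share in no other list from 67.6% to 33.3%.

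With distance from young H3K27me3, the share in ASCs fell step by step, at nearly even scores. It was 73.4% (67.5% to 78.6%) of the 241 peaks within 1 kb, 60.5% (56.3% to 64.5%) from 1 to 5 kb, 45.2% (42.7% to 47.8%) from 10 to 50 kb and 19.9% (17.7% to 22.2%) of the 1193 peaks over 1 Mb away. The median score in these bands lay between 69.66 and 76.79 and did not follow the same order. How dense ASC H3K27me3 peaks are in general at these distances was not computed, so its part in the fall was not tested. Peaks in no other list went from 23.7% (18.7% to 29.4%) within 1 kb to 75.1% (72.6% to 77.5%) beyond 1 Mb. This is nearly the complement of the share in ASCs and no separate result, since 686 of the 8020 peaks are in neither part.

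**Figure D4:**
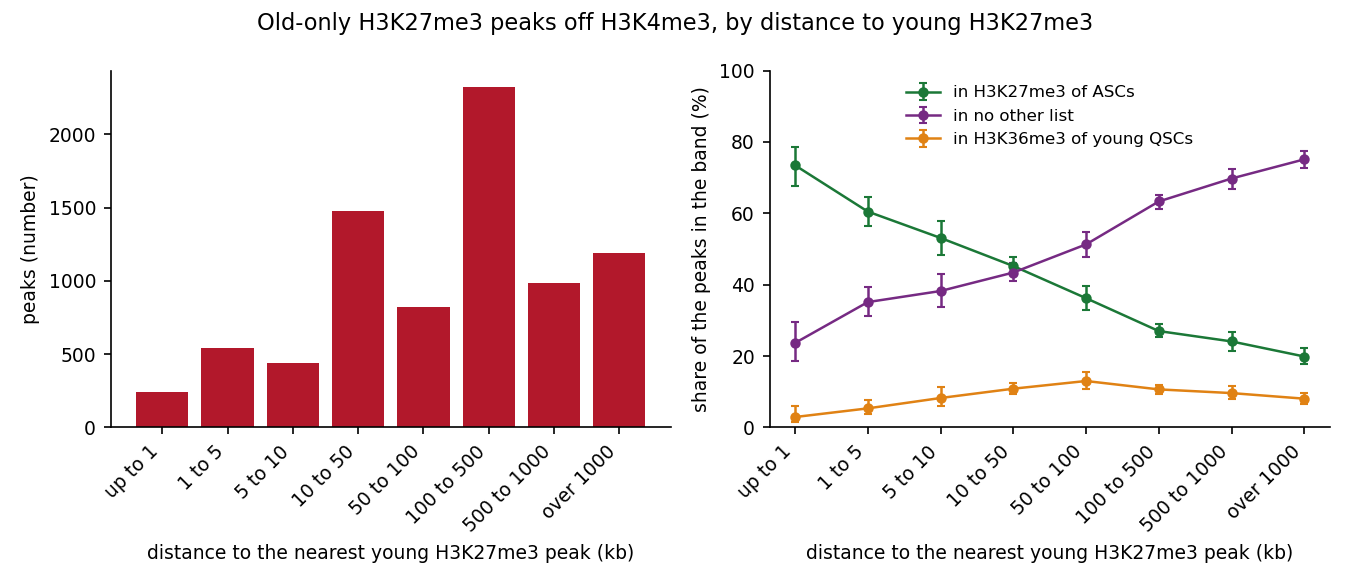
Left, the number of the 8020 peaks in bands of distance (kb) to the nearest H3K27me3 peak of young QSCs. Right, the share (%) of each band called in H3K27me3 of ASCs, in no other list, or in H3K36me3 of young QSCs, with Wilson 95% intervals. The largest band, 2319 peaks, is the one from 100 to 500 kb, and the share in ASCs is highest within 1 kb.

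The ASC peaks at these places were slightly narrower than the other ASC peaks and slightly higher in score. The 2804 peaks were met by 2803 peaks of the ASC list, with a median width of 807 bp, against 874.5 bp for the other ASC peaks. Their median score in the ASC list was 102.24, against 96.80. An old peak and the ASC peak that shared most bases with it were of like size, 808 and 808.5 bp in the median, and ASC peaks covered a median of 90.7% of an old peak. In 100 cases (3.57%) the ASC peak also reached a young H3K27me3 peak. There the ASC peak was 3622.5 bp wide in the median and the gap between the old and the young peak 0.526 kb, so these are places where 1 ASC domain spans both. Seen from ASCs, 25777 H3K27me3 peaks had neither young H3K27me3 nor H3K4me3 of young QSCs or ASCs, and 2632 of them, or 10.2% (9.85% to 10.6%), were met by one of the 8020 peaks.

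H3K36me3 of young QSCs, the mark of transcribed gene bodies, overlapped 777 of the 8020 peaks, a share of 9.69% (9.06% to 10.4%), against 13.5% of all old peaks. H3K36me3 peaks cover 1.17% of the autosomal bases and covered 9.47% of the bases of the 8020 peaks. The share was 24.5% (23.2% to 25.8%) for the old-only peaks on H3K4me3 and 9.53% (8.71% to 10.4%) for the shared peaks. The old-only peaks off H3K4me3 were below those on H3K4me3 on 19 of 19 autosomes and above the shared peaks on 11 of 19.

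Many shared peaks lie on H3K4me3, so the closer comparison is with H3K27me3 off H3K4me3. Of the 1251 shared peaks that met no H3K4me3 of QSCs, 26 overlapped young H3K36me3, or 2.08% (1.42% to 3.03%). Of the 7252 young H3K27me3 peaks that had no H3K27me3 in old QSCs and no H3K4me3 at either age, 28 did, or 0.386% (0.267% to 0.557%). The share of the 8020 peaks was above both on 19 of 19 autosomes. Both sets carry H3K27me3 of young QSCs by definition, which the 8020 lack, and this H3K36me3 was read in young QSCs too. How much of the difference the rule sets was not tested, and nothing is read from it. With scores of at least 100 in every list it was 4.59% (3.93% to 5.36%), against 1.203% (0.584% to 2.46%) and 0.131% (0.0510% to 0.337%), and above them on 16 and 19 autosomes. For H3K36me3 of ASCs, the share of the 8020 peaks was 5.76% (5.27% to 6.29%), beside 4.81% of all old peaks. The same comparison sets, the shared and the young peaks off H3K4me3, were at 1.199% (0.728% to 1.97%) and 0.703% (0.535% to 0.923%). With scores of at least 100 the ASC shares were 2.10% (1.66% to 2.65%) for the old-only and 1.72% (0.936% to 3.13%) for the shared peaks, and these intervals overlapped. The young peaks were at 0.525% (0.323% to 0.851%), an interval below that of the old-only peaks. The old H3K27me3 list and the H3K36me3 lists come from mice of different ages, and which input each was called against is not given in the sources used here, so the part of age and of the input in these shares was not tested.

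The 777 peaks on young H3K36me3 were wider than the rest, with a median of 828 bp against 710 bp, and nearer to H3K4me3, with a median distance of 20.5 kb against 32.3 kb. H3K36me3 covered a median of 93.8% of their bases, and 325 lay within it from end to end. H3K27me3 of ASCs was called at 39.1% (35.8% to 42.6%) of them and at 34.5% (33.4% to 35.6%) of the others. H3K36me3 of ASCs was called at 272 of the 777, or 35.0% (31.7% to 38.4%), and at 190 of the others, or 2.62% (2.28% to 3.02%). The share on young H3K36me3 was 2.90% (1.41% to 5.87%) within 1 kb of young H3K27me3 and 13.0% (10.9% to 15.5%) at 50 to 100 kb, and it was lower again farther out, with 10.7% (9.46% to 11.97%) at 100 to 500 kb, 9.62% (7.93% to 11.6%) at 500 to 1000 kb and 8.05% (6.63% to 9.73%) over 1 Mb. It was 8.76% (7.03% to 10.9%) in the lowest of the 10 groups by score and 14.3% (12.1% to 16.9%) in the highest. By distance to H3K4me3 it went from 15.3% (10.97% to 20.9%) within 1 kb to 7.69% (6.55% to 9.01%) beyond 100 kb.

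H3K4me3 appeared in ASCs at few of the places. It overlapped 158 of the 8020 peaks, or 1.97% (1.69% to 2.30%), against 26.2% of all old peaks, a set from which the rule did not remove the H3K4me3 sites of QSCs. In the young H3K27me3 peaks without old H3K27me3 and without H3K4me3, which the same filter was applied to, the share was 2.08% (1.78% to 2.44%), and the intervals overlapped.

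These 7252 young peaks are the converse of the 8020. They made up 62.7% (61.8% to 63.6%) of the 11562 autosomal H3K27me3 peaks of young QSCs, while the 8020 made up 47.4% of the old ones. The young list covered 21.3 Mb of the autosomes and the old list 16.2 Mb. The 7252 peaks covered 9.68 Mb, with a median width of 1055.5 bp (1043 to 1069) and a median score in the young list of 81.07. Old H3K27me3 was near them, at a median distance of 10.9 kb (10.3 to 11.6), whereas the 8020 old peaks were at 143 kb from young H3K27me3. These distances have different targets, 16933 old and 11562 young peaks, and depend on the number and spread of the targets. H3K27me3 of ASCs was called at 63.3% (62.2% to 64.4%) of the 7252, against 35.0% of the 8020. The rule favours this order, since the 7252 were called in young mice, as the ASC peaks were, and the 8020 were not called in young QSCs.

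Along the genome the peaks were spread over all autosomes. The density was lowest on chromosome 14, with 2.64 peaks per Mb, and highest on chromosome 11, with 4.42, a ratio of 1.67 (Mb counted up to the last peak of any list). The parts of the peaks differed in this range. The part also called in ASCs went from 0.602 per Mb on chromosome 3 to 2.25 on chromosome 11, a ratio of 3.74, beside a ratio of 3.28 for all H3K27me3 peaks of ASCs and of 3.18 for those of young QSCs. The part found in no other list went from 1.501 on chromosome 12 to 2.17 on chromosome 17, a ratio of 1.45, less than the 2.35 of young H3K4me3 and the 2.88 of young H3K36me3. It was the more evenly spread of these parts. Peaks that met H3K27me3 of ASCs or H3K36me3 are left out of it by definition, and how much this evens it was not tested.

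**Figure D5:**
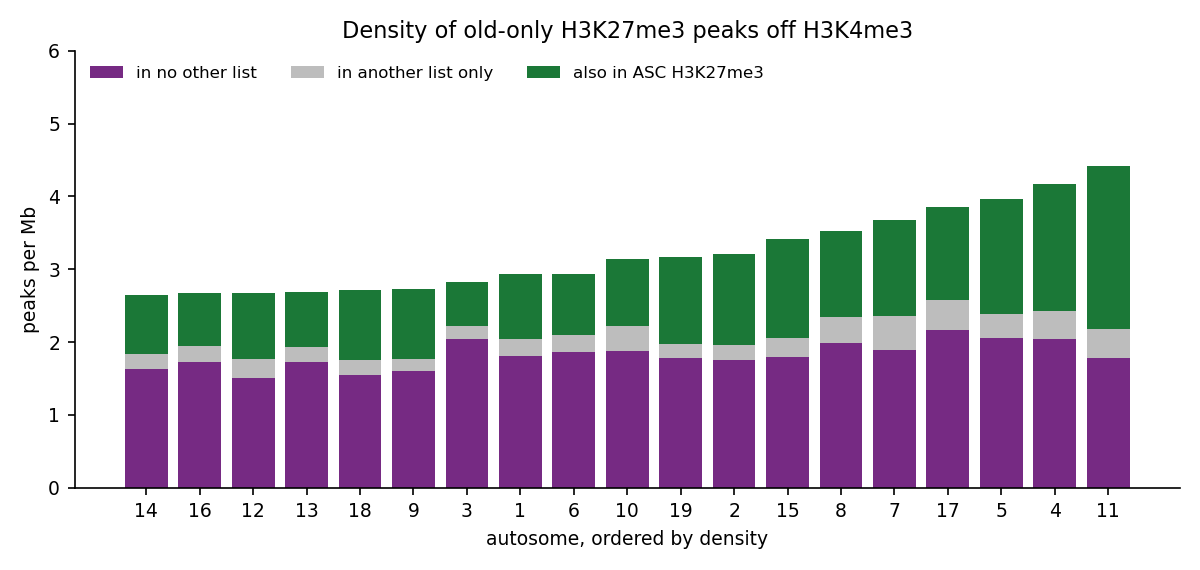
Peaks per Mb on each of the 19 autosomes, ordered by density, stacked as the peaks found in no other list, those in another list without H3K27me3 of ASCs, and those also called in H3K27me3 of ASCs. The lowest segment varies by a ratio of 1.45 between autosomes and the top segment by a ratio of 3.74.

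The same was seen at a finer scale. In 2482 windows of 1 Mb there was a median of 3 peaks, 248 windows (9.99%) held none, and 103 windows held 10 or more. Windows in which no peak could be called, for want of sequence in the build, were not set apart from the empty ones. The variance of the counts was 3.09 times the mean for the part called in ASCs and 1.26 times the mean for the part in no other list. Across the 2482 windows, Spearman's rho with the number of ASC H3K27me3 peaks was 0.55 for the first part, which shares its places with that list by definition, and 0.14 for the second. With young H3K4me3 it was 0.36 and 0.11, and with young H3K36me3 0.38 and 0.12. These correlations are descriptions across windows, which share mappability and base composition. The second part leaves out, by definition, every peak that met H3K27me3 or H3K4me3 of ASCs or H3K36me3 of either state. This may lower its correlations and its variance, so nothing is read from the difference between the parts.

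Along the length of a chromosome, the last 10% of the length held 13.1% of the peaks and the first 10% held 7.00%. For the part in ASCs these shares were 16.6% and 5.21%, close to the 16.7% and 4.26% of all ASC H3K27me3 peaks. For the part in no other list they were 10.7% and 8.28%. Other marks were also low at the start, with 14.5% and 5.99% for young H3K4me3 and 17.3% and 5.85% for young H3K36me3. Stretches without sequence in the build were not set apart, so no depletion at a chromosome end is read from these shares.

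The 3 windows with the most peaks held 25 each. They lay on chromosome 7 from 25000001 to 26000000, on chromosome 10 from 79000001 to 80000000, and on chromosome 11 from 58000001 to 59000000 (mm9). In each, 16 or 17 of the 25 were also called in ASCs and 2 to 4 were in no other list. All 3 windows were also rich in other marks of young QSCs. The window on chromosome 10 held 101 H3K4me3 and 82 H3K36me3 peaks, beside 9.72 and 8.22 per Mb on the whole chromosome. On chromosome 7 these were 39 and 53, beside 11.5 and 11.2 per Mb. On chromosome 11 they were 30 and 18, beside 16.0 and 13.4 per Mb.

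Neighbours were counted among the 8020 peaks only, so a lone peak may have an old peak of another class beside it. With gaps of at most 10 kb, 6826 (85.1%) had no other one of the 8020 beside them. The other 1194 formed 504 runs, of which 383 were pairs and 14 held 5 or more. The share of lone peaks was not computed for all old peaks or for random places, so it does not show whether the peaks cluster. ASC H3K27me3 was called at 53.3% (50.4% to 56.1%) of the peaks in runs and at 31.8% (30.7% to 32.9%) of the lone ones. The share on young H3K36me3 was about the same, at 9.30% (7.78% to 11.1%) and 9.76% (9.08% to 10.5%). Peaks in runs were nearer to young H3K27me3, at a median of 19.7 kb against 196 kb.

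The longest run held 13 peaks on chromosome 11, at chr11:58889649-58953098 (mm9), over 63.5 kb. Their scores ran from 50.26 to 114.89. Of the 13, 10 were also called in H3K27me3 of ASCs, and 12 overlapped H3K36me3 of ASCs, whose peaks covered 82.3% of the run. H3K36me3 of young QSCs overlapped 1 of them and covered 3.08% of the run. Young QSCs had 2 H3K27me3 peaks within the run, the nearest 1.08 kb from one of the 13. A further run of 6 peaks was found on the same chromosome at chr11:58851797-58866573, 5 of them called in ASCs. The second longest run, at chr13:55099026-55116811, had 7 peaks with scores from 51.02 to 135.47, of which 2 were called in ASCs and 4 lay on young H3K36me3. Of the 3 runs with 6 peaks, the others were on chromosomes 4 and 18.

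The highest scores among the peaks also called in ASCs belonged to 5 regions. The first, chr14:119210521-119212675, was 2155 bp wide and had a score of 633.01, while the ASC peak there was 790 bp wide with a score of 87.43. It ranked 483 by score among all old peaks, and the peaks above it were all shared or on H3K4me3. The second, chr4:31862579-31865960, was 3382 bp wide with a score of 482.20, lay 1084 kb from young H3K27me3 and overlapped H3K36me3 of young QSCs. At chr11:95833386-95834107 the peak was 722 bp wide with a score of 403.82, and in ASCs 940 bp with 199.45. The 2 others were beside young H3K27me3. At chr7:53048646-53051238 (2593 bp, score 399.45) the young peak was 912 bp away. At chr1:74992671-74993814 (1144 bp, score 389.50) it was 126 bp away and the ASC peak spanned 9966 bp with a score of 3100. The old peak on chromosome 1 also overlapped H3K36me3 of young QSCs.

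Among the peaks found in no other list, the 5 highest were at chr1:15732380-15733910 (1531 bp, score 340.67), chr15:49209637-49211386 (1750 bp, 313.20), chr7:57626088-57627945 (1858 bp, 302.58), chr9:87733225-87735491 (2267 bp, 286.38) and chr6:54391103-54391616 (514 bp, 285.42). The first 4 were 61.0 kb or more from H3K4me3 and 91.6 kb or more from young H3K27me3. The fifth was 10.6 kb from H3K4me3 and 9.80 kb from young H3K27me3, and was narrower than the median.

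The 3 widest peaks were chr1:85041744-85045318 with 3575 bp, the peak on chromosome 4 described above with 3382 bp, and chr10:57698917-57701758 with 2842 bp. Their scores of 166.10, 482.20 and 60.93 spanned most of the range, so width and score did not rank these 3 alike. The last of them was in no other list.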

How the data were processed

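The authors aligned the ChIP-seq reads with Bowtie to the mouse build mm9, as the submitters' processing notes give it, and deposited 1 peak list per library. The peak names are those of MACS, and the lists' names say that an input control was used. Versions, read numbers, the handling of duplicate reads and the input of each list are not given in the sources used here. The deposited score of each peak follows the MACS scale, 10 times the negative log10 of the p-value. It depends on depth. Peaks were ranked by it within a list, but 1 limit of 100 was also applied to all lists, and where scores of an old and an ASC peak stand side by side they are not on a common scale. The deposited positions (start counted from 0) were turned into positions counted from 1. The 3 input libraries were not analysed here on their own.

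Overlaps of at least 1 bp, distances and covered lengths were computed with Python 3.11.15, numpy 2.4.6, pandas 2.3.3 and scipy 1.17.1, and figures were drawn with matplotlib 3.10.9. The functions were tested on simulated data, with all 1000 peaks recovered, and gave the same counts as bedtools 2.31.1 for 3 pairs of the lists. No test was run, since each cell state, age and mark has 1 library. Depth and therefore precision are unknown beyond counting error.

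The peaks, classes and limits were chosen with earlier results of these data known. The regions named are the 5 highest scores in each of the parts in ASCs and in no other list, the 3 widest peaks, the 3 fullest windows and the 3 longest runs. The gene and promoter tables at hand are in GRCm38, so no gene and no sequence is given. The alternatives were a score of at least 100, an overlap of 50% of the shorter peak, a margin of 1 kb, merging of peaks less than 1 kb apart and a reduced ASC list.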

Additional observations from a re-analysis of the deposited data

How the results depend on the processing

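Of 47 values under other settings, 23 were close to the reported ones. An overlap of 50% of the shorter peak moved none. Scores of at least 100 in every list gave 3288 peaks covering 3.35 Mb, since lists of excluded peaks shrink as well, with a median width of 938.5 bp, 57.0% between 0.5 and 1 kb, a median score of 133.7, a median distance of 375 kb, 4.59% on young H3K36me3, 32.6% in ASC H3K27me3 and 63.4% in no other list. Scores of at least 100 in the old H3K27me3 list alone, chosen after seeing the data, gave 1903 peaks covering 1.79 Mb, 892 bp, 65.0%, a median score of 127.78, a median distance of 148 kb, 11.8%, 52.2% and 40.6% for the same quantities. Between these score limits, the distance moved under the one that also shortened the young list, and the direction in which the shares on H3K36me3 and in ASCs moved depended on whether the other lists were restricted too. Without excluded peaks within 1 kb, the distance was 160 kb, the share in ASCs 33.5% and the share in no other list 58.0%. Merging gave 81.3% between 0.5 and 1 kb and a distance of 154 kb. When only the 11562 ASC peaks of highest score were kept, the number of peaks in young QSCs, 11.2% of the 8020 peaks were in ASC H3K27me3 and 76.6% in no other list, so both shares rest on the length of that list. No paired analysis was possible because each group holds 1 library and no result comes from a test.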

Other observations

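On the X chromosome, which the rule leaves out, 340 of the 688 H3K27me3 peaks of old QSCs met its other conditions, a share of 49.4% (45.7% to 53.1%), close to the 47.4% on the autosomes. Their median width was 777.5 bp (732 to 810) and their median score 73.8 (70.5 to 78.9). Their density was 2.04 per Mb, below that of every autosome. Young QSCs had 95 H3K27me3 peaks on this chromosome, and the median distance to the nearest of them was 2156 kb (1833 to 2462). H3K36me3 of young QSCs overlapped 29 of the 340 peaks, or 8.53% (6.00% to 12.0%), near the autosomal 9.69%. H3K27me3 of ASCs overlapped 74, or 21.8% (17.7% to 26.5%), against 35.0% on the autosomes, and 253 peaks, or 74.4% (69.5% to 78.8%), were in no other list, against 56.5%. ASCs had 2.89 H3K27me3 peaks per Mb on the X chromosome and at least 7.82 on each autosome. All mice were male, and the part that a single X chromosome plays in these shares was not tested.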
